A study of Mus musculus with 6 samples.

Results

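Capillary pericytes of the mouse brain surface and dura were examined as 53 cell barcodes out of the 8804 that passed the cell filters, and out of 17560 deposited barcodes in all. A barcode was a member when it had at least 500 genes, at most 10% mitochondrial UMIs, a UMI (a counted transcript molecule) of at least 3 of Abcc9, Higd1b, Ndufa4l2, Cox4i2, Art3 and Kcnj8, and no UMI of Ptprc, Pecam1, Cnn1, Ccl19, Colec11, Il34 or Prrx1. The data were 10x single-cell RNA sequencing of 6 libraries from adult wild-type C57BL6 mice, without treatment or engineered allele, sorted as DRAQ5-positive and propidium iodide-negative cells. The 4 cortical surface libraries were made from tissue digested off the surface of the dorsal cortex, labelled brain, and the 2 bone-associated libraries from meningeal tissue peeled off the inner face of the skull bone, labelled Dura/Skull. Each library pooled several mice with equal numbers of each sex, so the library was the replicate, and nothing in a library separates one animal from another. Cortical surface libraries 1 to 4 held 5, 15, 3 and 13 members, 36 in all, and bone-associated libraries 1 and 2 held 3 and 14, 17 in all. Members were 0.674% of the kept cells of the cortical surface and 0.491% of those of the bone-associated tissue. The tissue is described here as the sample titles and the study's methods give it; the extraction text attached to the samples describes another brain region and enzyme, and this conflict is not settled by the sources used here. Tissue and dissection differ together between the preparations and cannot be told apart. Cortical surface libraries 3 and 4 stood apart from 1 and 2. They kept 1103 of 5207 and 2241 of 5602 barcodes, against 743 of 951 and 1252 of 1765, and held no smooth muscle cell by the definition used further on, against 89 and 135. Levels are therefore given library by library for most genes, and leaving out library 3 or 4 gave 82 or 39 called genes in the 6-library comparison that has 90 with all of them. Any 2 libraries shared between 0 and 9 barcode sequences, and between 0 and 2 among kept cells, over 15 pairs.

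Pericytes sit in the basement membrane of capillaries, wrap the endothelial tube, and belong with smooth muscle cells to the mural cells of vessels. Endothelial Pdgfb recruits them through the receptor Pdgfrb, and in the brain they help to maintain the blood-brain barrier. Abcc9 and Kcnj8 encode the sulfonylurea receptor subunit and the pore of a potassium channel that opens when ATP falls. Higd1b, Ndufa4l2 and Cox4i2 encode mitochondrial proteins of the respiratory chain, and Art3 belongs to the ADP-ribosyltransferase family. Smooth muscle cells of arteries differ by a contractile apparatus that includes Acta2 (smooth muscle actin), Myh11 (smooth muscle myosin) and Tagln (transgelin), whose genes carry CArG boxes, the sites bound by serum response factor.

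Contractile genes divided the members into separate groups, as given further on. For this reason 4 short sites upstream of contractile genes are shown, with the CArG box or its near match in capitals and 10 bases to each side. They are read 5′ to 3′ on the strand of the gene from RefSeq promoters (GRCm38.p6). A CArG box was taken as CC and GG around 6 bases that are each A or T, and a near match had 1 C or G among those 6. The Acta2 sites began 84 and 34 bases before the RefSeq start, at chr19:34255438-34255467 and chr19:34255388-34255417 on the minus strand, and lie in a UTR exon of a longer GENCODE transcript. The Myl9 sites (regulatory myosin light chain) began 161 and 99 bases before the start, at chr2:156775293-156775322 and chr2:156775355-156775384 on the plus strand, outside annotated exons.
Acta2 first site: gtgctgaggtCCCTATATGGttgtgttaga
Acta2 second site: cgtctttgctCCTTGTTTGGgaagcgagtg
Myl9 first site: caagcagaggCCTAATAAGGccgggctggc
Myl9 second site: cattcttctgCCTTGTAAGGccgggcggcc
In the 250 bases before the start, a CArG box or near match stood in 3 of the 14 contractile genes with a promoter in the table (Acta2, Myl9 and Vcl), and in 9.78% of all 27025 genes. For a strict CArG box the counts were 2 of 14 (Myl9 and Vcl) and 1.62%. Tagln and Myh11 had no promoter there. None of the 3 rule genes with a promoter in the table (Abcc9, Art3 and Kcnj8) held either form in this window, too few genes to set against those shares. Of the brain pericyte transport genes given further on, 2 of 14 (Ggt1 and Gper1) held a CArG box or near match. Of the pericyte identity genes 0 of 10 did.

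The label was then checked against genes outside the rule. In cortical surface members it held: Rgs5, a G-protein signalling regulator of mural cells, had a UMI in all 36, Pdgfrb in 34 and Vtn (vitronectin, a matrix glycoprotein made by brain pericytes) in 34. In bone-associated members it held less well: Rgs5 was found in 14 of 17, Pdgfrb in 12 and Vtn in 4, and of the 7 members low in the contractile genes described next only 3 had a UMI of Pdgfrb. The summed share of Acta2, Myh11 and Tagln fell into separate groups, with 39 members at or below 31.5 and 14 members at or above 113 per 10000 UMIs, and no member between. A limit of 50 per 10000, set after the values were seen, divides them. Contractile-high members were 4 of 36 in cortical surface libraries (11.1%, exact Clopper-Pearson 95% interval 3.11 to 26.1%) and 10 of 17 in bone-associated libraries (58.8%, 32.9 to 81.6%). The intervals cover counting error over cells only and are no test of the preparations. Most bone-associated members therefore carried smooth muscle genes and go against the name capillary pericyte, although all had passed the exclusion of Cnn1. In cortical surface libraries 1 to 4 the contractile-high members numbered 1, 3, 0 and 0, and in bone-associated libraries 1 and 2 they numbered 2 and 8.

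**Figure D1:**
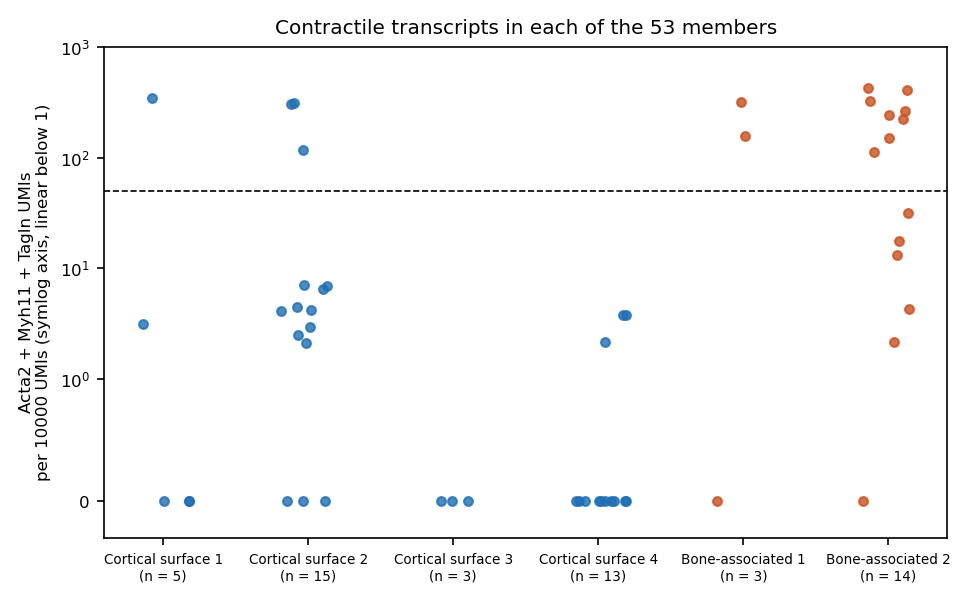
Each point is 1 of the 53 members, placed by library on the horizontal axis and by its summed Acta2, Myh11 and Tagln UMIs per 10000 UMIs on the vertical symlog axis, with a dashed line at 50. Only bone-associated libraries and cortical surface libraries 1 and 2 have points above the line, and no point lies between 31.5 and 113.

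Both kinds of member carried mural genes, but not the same rule genes. Among the 32 contractile-low members of the cortical surface, Abcc9 had a UMI in 24, Kcnj8 in 28 and Cox4i2 in 32. Among the 14 contractile-high members of both preparations, Abcc9 had no UMI in any, Kcnj8 was found in 3, and Ndufa4l2 and Cox4i2 had UMIs in all. The number of rule markers per member had a median of 5 in cortical surface and 3 in bone-associated libraries. Of the 14 members that met the rule with exactly 3 markers, 11 were contractile-high. These members just inside the limit held on average 34.1 UMIs of Rgs5 and 92.9 of Acta2 per cell, and the 18 cells just outside it, with 2 markers, held 3.78 and 87.9. Notch3, the mural Notch receptor, was close in both kinds of member: 8.44 UMIs per 10000 in contractile-low and 8.52 in contractile-high members of the cortical surface, summed over libraries, and 6.07 and 6.85 in bone-associated members. Vtn differed between the kinds, with 94.5 against 2.84 per 10000 in cortical surface libraries and 8.97 against 0 in bone-associated libraries.

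The exclusion genes decided how many cells were left. Of 1041 kept cells with at least 3 markers, only 5.09% were members, because 76.8% of these cells had a UMI of Il34 (a ligand of the Csf1 receptor) and 76.3% a UMI of Prrx1 (a mesenchymal homeobox factor). Pecam1 and Ptprc, which mark endothelial and immune cells, were found in 2.98% and 3.55%. Il34 alone removed 111 cells and Prrx1 alone removed 79. Members were shallower than the other cells with at least 3 markers in 5 of 6 libraries: their median was 3233, 4071, 4514 and 2670 UMIs in cortical surface libraries 1 to 4 and 7041 and 6770.5 in bone-associated libraries, against 7545.5, 7223, 4282, 3990.5, 12512.5 and 9603 in the other cells. The total over members was 150966 UMIs in the cortical surface and 116295 in bone-associated libraries. The 53 members carry the tests. A wider set of 345 cells, chosen after the values were seen, allowed Il34 and Prrx1 and left out contractile-high cells. It holds the 39 contractile-low members, so it is not independent of them. It had 47, 80, 35 and 114 cells of cortical surface libraries 1 to 4 and 16 and 53 of bone-associated libraries 1 and 2, and its values are given here as a description. Fits on it stand only among the alternatives of the closing section. The limit of 50 is less clear-cut among cells with Il34 and Prrx1 allowed, where 51 of 518 lay between 20 and 100.

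Levels below are UMIs per 10000 non-hemoglobin UMIs of the summed cells of a library. Hemoglobin was set aside because it made up 24.4% of member UMIs in cortical surface library 4 and at most 0.339% in the other libraries. A single barcode of library 4 carried nearly all of it, with 13972 UMIs of which 81.1% were hemoglobin, and the other 12 members of that library had under 1% each. The 6 rule markers, which chose the members and so are given with no test, were led in total UMIs by Ndufa4l2, at 17.0, 15.7, 20.4 and 27.3 in cortical surface libraries 1 to 4 and 7.86 and 11.7 in bone-associated libraries 1 and 2. Kcnj8 stood at 3.77, 9.03, 8.50 and 13.8 in the cortical surface and at 0 and 2.26 in bone-associated libraries. Abcc9 stood at 9.43, 3.24, 4.25 and 9.85 against 1.05 and 2.57. The cortical surface libraries lay above both bone-associated libraries for these 3 genes and for Higd1b, at 7.54, 9.03, 22.1 and 23.9 against 5.24 and 3.70. The other rule markers overlapped. Cox4i2 was at 6.13, 8.18, 17.9 and 12.7 against 7.86 and 5.14. Art3 was at 0.943, 1.55, 11.9 and 6.19 against 1.57 and 1.85, so cortical surface libraries 1 and 2 lay below both bone-associated ones. In the wider set the order of Abcc9 was not kept: 10.4, 6.35, 7.56 and 6.37 against 16.7 and 8.19. Kcnj8 there was 11.6 ± 1.24 (SD, n = 4) against 8.87 ± 0.52 (n = 2).

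Identity genes outside the rule differed among themselves in how far the preparations lay apart. Vtn, given with the transport genes further on, lay farthest apart of those described. Rgs5 in members was at 109, 72.5, 96.9 and 124 in cortical surface libraries 1 to 4 and at 67.1 and 40.3 in bone-associated libraries. Pdgfrb (chromosome 18, 61045150 to 61085061, plus strand, mm10, protein coding) was at 9.90, 12, 23.8 and 20.3 against 11.5 and 3.70, so the preparations overlapped. Notch3 was at 11.8, 7.33, 9.35 and 8.44 against 12.6 and 5.45, also overlapping. Cspg4, the NG2 proteoglycan of mural cells, was at 5.18, 3.67, 5.95 and 4.22 against 2.62 and 1.65. None of these 4 passed the test, with edgeR adjusted p of 0.91, 0.74, 0.95 and 0.85 in that order. Pdgfra, which marks fibroblasts and oligodendrocyte precursors, had no UMI in any of the 36 or 17 members, which allows a share of up to 8.33% and 17.6% of cells with a UMI (3 counts of the total).

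**Figure D2:**
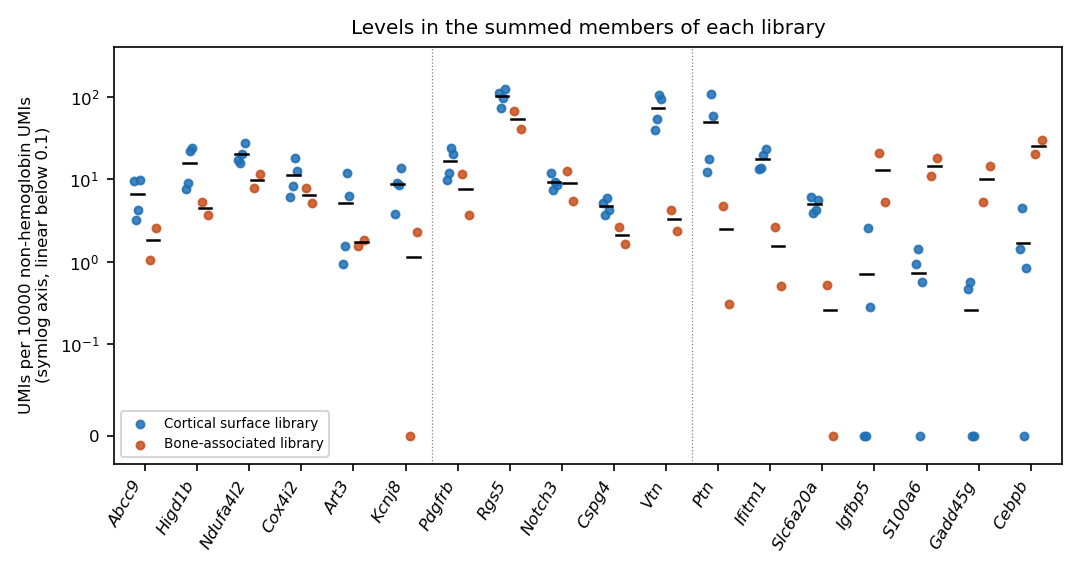
Points are libraries, with the summed members of each on a symlog axis of UMIs per 10000 non-hemoglobin UMIs, blue for cortical surface (n = 4) and orange for bone-associated (n = 2), and black bars are means. Dotted lines part the 6 rule markers, the 5 identity genes and genes called in the 6-library comparison; Notch3 overlaps between preparations, and Ptn and S100a6 lie apart in opposite directions.

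The main comparison asked which genes differ between the members of both preparations, of which bone-associated library 2 had 8 contractile-high cells among 14, with 63893 of its 97206 UMIs. It used the 3 libraries with at least 10 members, cortical surface 2 and 4 and bone-associated 2, in edgeR's quasi-likelihood test, where calling a gene took a log2 fold change of 1.3 or more in size together with an adjusted p (Benjamini-Hochberg) below 0.05. Of 7100 genes tested, 89 were called (1.25%), 20 higher in the cortical surface (0.282%) and 69 higher in bone-associated members (0.972%). With all 6 libraries fitted, an alternative chosen after seeing the data, 90 of 7328 were called (1.23%), 19 higher in the cortical surface (0.259%) and 71 higher in bone-associated members (0.969%), and 67 genes were called in both fits, all with the same sign. DESeq2 called 0 genes in the 3 libraries, where 42 had an unadjusted p under 0.05 against 527 with edgeR, and 27 in the 6 libraries. Without the contractile-high members the 6-library fit called 22 genes, all higher in bone-associated members. The bone-associated side of the 3-library fit is a single library with no replicate, which is assumed to vary like the 2 cortical surface libraries, and these stood apart from each other. All adjusted p-values of that fit are to be read with this limit. Its calls rest on 1 residual degree of freedom: leaving out cells with a UMI of Dcn, Lum or Pdgfra, which removed 1 member of these libraries, from bone-associated library 2, left 0 calls (298 genes at an unadjusted p under 0.05). The fold changes hardly moved, with Gadd45g at -5.62 and its adjusted p at 0.76, and the number of degrees of freedom that edgeR borrowed across genes went from infinite to 1.67.

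Genes of the brain pericyte transport list made up 6 of the 20 calls higher in the cortical surface. Of its 16 genes, 12 were tested and 6 called, all higher in the cortical surface, and 7 were called in the 6-library fit; the median log2 fold change was 4.91 against -0.14 for all tested genes. The list had been assembled with earlier results of these data known. In the 6-library fit all 19 calls higher in the cortical surface were lost without contractile-high members, and likewise without bone-associated library 2. In those fits edgeR gave adjusted p of 0.38 and 0.53 for Slc6a20a, 0.62 and 0.65 for Ptn, 0.62 and 0.56 for Ifitm1, 0.62 and 0.58 for Vtn and 0.40 and 0.20 for Pitpnc1. The fitted log2 fold changes of these 5 genes lay between 2.34 and 6.71 in those fits, all higher in the cortical surface. Slc6a20a, a proline transporter (chromosome 9, 123634770 to 123678885, minus strand), stood at 6.13, 3.95, 4.25 and 5.63 in cortical surface libraries 1 to 4 and at 0.524 and 0 in bone-associated libraries. Its fitted log2 fold change was 7.82 (SE 1.48, adjusted p = 9.1e-05, edgeR), a value that depends on the prior count because bone-associated library 2 had no UMI. The single bone-associated UMI came from library 1, against 66 in the cortical surface.

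Ptn, a secreted heparin-binding growth factor, was at 12.3, 17.6, 107 and 58.2 against 4.72 and 0.309, with 484 and 12 UMIs. Its log2 fold change was 6.42 (SE 1.50, adjusted p = 0.0037) in 3 libraries and 4.35 (SE 1.06, adjusted p = 0.0058) in 6, both by edgeR. The 4 cortical surface libraries lay above both bone-associated ones, with a wide spread among them. Ptn also differed between kinds of member, at 49.5 in contractile-low against 0.710 in contractile-high members of the cortical surface, and its 12 bone-associated UMIs were all in contractile-low members. The single contractile-low member of bone-associated library 1 held 9 of them, or 71.2 per 10000. Ifitm1, an interferon-induced membrane protein, was at 13.2, 13.7, 19.6 and 23.3 against 2.62 and 0.514 (edgeR log2 fold change 4.73, SE 1.15, adjusted p = 0.0071). Vtn was at 39.6, 54.2, 106 and 94.8 against 4.19 and 2.37; it missed the threshold in 3 libraries (edgeR adjusted p = 0.17, and 0.015 with hemoglobin genes left out) and passed in 6 (log2 fold change 4.27, SE 1.11, adjusted p = 0.014, edgeR). Further genes passed with few or no bone-associated UMIs. Slc19a1, a folate carrier, had 39 against 0 UMIs, Gper1, a membrane estrogen receptor, 42 against 0, and Atp13a5, a P5-type ATPase, 37 against 1; Uchl1, a ubiquitin hydrolase outside the list, had 30 against 0. Pitpnc1, a phosphatidylinositol transfer protein, was at 2.36, 3.67, 7.65 and 4.78 against 0 and 0.309, and was called in both fits.

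Among the genes named by size, those higher in bone-associated members included Gadd45g, Gadd45b and Cdkn1a. The median mitochondrial share of member UMIs was also higher there, at 7.09 and 6.79% against 4.65, 5.63, 3.84 and 3.93% in cortical surface libraries 1 to 4, without overlap. Its part in the stress-response and immediate early genes given here was not tested. Gadd45g, which responds to DNA damage and stress, was at 0.471, 0.564, 0 and 0 in cortical surface libraries and at 5.24 and 14.6 in bone-associated libraries. The fit gave a log2 fold change of -5.58 (SE 0.86, adjusted p = 7.1e-07, edgeR). Its relative Gadd45b was at 0, 1.27, 3.40 and 1.13 against 27.8 and 22.7, and Cdkn1a, the p21 cell cycle inhibitor, at 0, 0.846, 0 and 0 against 1.05 and 8.54. All 3 lay apart between preparations. The transcription factor Nr4a2 had 1 UMI in cortical surface and 81 in bone-associated members, and Cebpb stood at 1.41, 4.51, 0 and 0.844 against 20.4 and 29.9. In bone-associated libraries contractile-high members held all 81 UMIs of Nr4a2, 269 of 274 of Gadd45b and 312 of 330 of Cebpb. Without contractile-high members the 6-library fit gave Gadd45b a log2 fold change of -0.51 (edgeR adjusted p = 0.95) and Cebpb -1.91 (0.62), and Gadd45g -4.48 (0.039) and Cdkn1a -7.19 (2.5e-05). The value for Cdkn1a depends on the prior count, because contractile-low cortical surface members had 0 UMIs of it. Bone-associated library 1 then held 1 cell of 1264 UMIs, with none of Gadd45g, Cdkn1a, Gsn or Cd9 and 1 of S100a6, so bone-associated values in that fit rest on 6 cells of library 2. Of the 21 immediate early genes fixed in a list, 19 were tested and 4 called, all higher in bone-associated members (Fosl2, Egr1, Ier3 and Klf6), with a median of -1.29. Contractile-high members held most bone-associated UMIs of these 4 genes, 46 of 48, 88 of 119, 52 of 58 and 39 of 43. The 6-library fit called 5 genes of the list, with Nr4a1 and Klf4 in place of Klf6. Fos and Jun were not called: Fos was at 12.7, 63.5, 0 and 0 against 24.6 and 44.0, with cortical surface libraries on both sides of the bone-associated ones. Of 14 heat shock genes tested, none was called.

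Igfbp4, Igfbp5 and S100a6 were also called. Igfbp5, which binds insulin-like growth factors (chromosome 1, 72857932 to 72874884, minus strand), was at 0, 0, 2.55 and 0.281 against 21.0 and 5.25 (edgeR log2 fold change -5.82, SE 0.95, adjusted p = 1.9e-06). Igfbp4 was at 1.41, 0.846, 0 and 1.41 against 12.1 and 10.8. S100a6, a calcium-binding protein of proliferating and fibroblast-like cells, was at 0.943, 1.41, 0 and 0.563 against 11.0 and 18.2 (edgeR log2 fold change -4.38, SE 0.82, adjusted p = 8.2e-05). Each of the 3 was higher in both bone-associated libraries than in any cortical surface library. Without contractile-high members, edgeR's 6-library fit left S100a6 past the threshold (-5.12, adjusted p = 0.00034) and Igfbp5 (-2.16, adjusted p = 0.62) and Igfbp4 (-2.55, adjusted p = 0.38) short of it. S100a6 stood apart in both kinds of member: 0.412 against 20.8 per 10000 in contractile-low and 2.37 against 15.4 in contractile-high members. Gsn (the actin-severing gelsolin), Cd9 (a tetraspanin), Rasd1 (a Ras-like GTPase) and Ier3 completed the named genes of this direction, with edgeR adjusted p between 4.2e-05 and 0.0031 in 3 libraries. Contractile-high members held 118 of 120 bone-associated UMIs of Rasd1 and 52 of 58 of Ier3, and without those members neither passed in the 6-library edgeR fit (adjusted p = 0.88 and 0.62), while Gsn and Cd9 did (4.6e-06 and 0.0014). Without bone-associated library 2 none of the 4 passed (adjusted p between 0.65 and 0.997). Fabp4, a fatty acid carrier, had 0 UMIs in cortical surface members and 35 in bone-associated members, all in library 2. The 6-library fit also named Thbs1 (thrombospondin, at 0, 0, 0 and 0.281 against 19.4 and 1.65), Rcan2, Cstb and Crispld2, all higher in bone-associated members. Cstb, a cystatin, was at 31.4 in bone-associated library 1 and 3.29 in library 2. Contractile-high members held 87 of the 92 bone-associated UMIs of Cstb and all 53 of Thbs1.

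**Figure D3:**
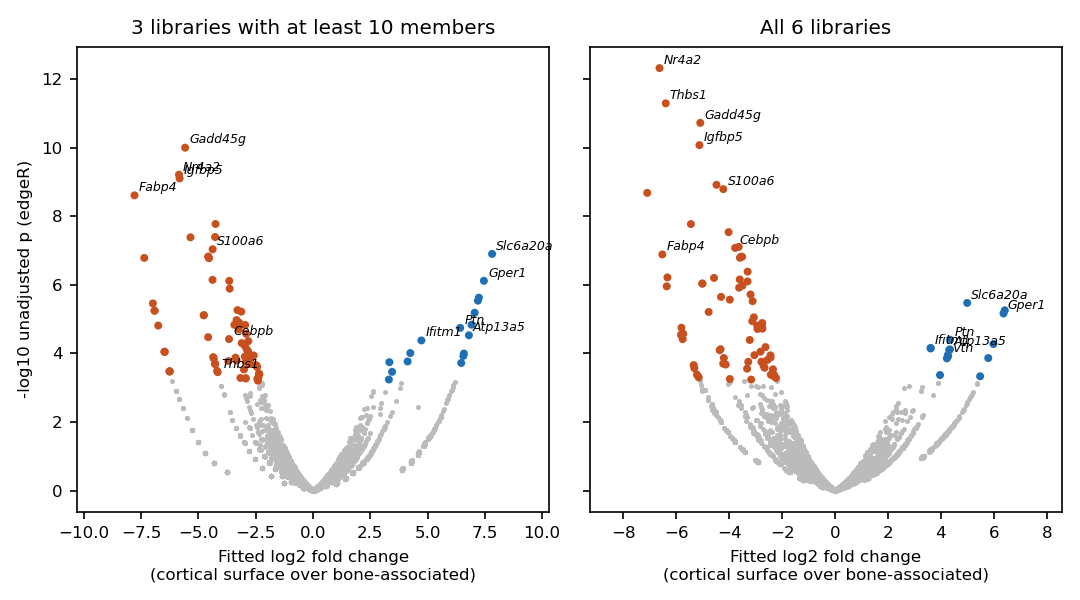
Each point is a gene, at its fitted log2 fold change (cortical surface over bone-associated) and the -log10 of its unadjusted edgeR p, for the 3 libraries with at least 10 members on the left and all 6 on the right; blue and orange points passed the threshold, and hemoglobin and rule genes are left out. Called genes number 20 and 69 among all genes tested in the left fit and 19 and 71 in the right, hemoglobin included.

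For the other lists, median log2 fold changes and calls are those of the 3-library fit, beside the median of all its tested genes, -0.14. The 6-library fit also called Il6 of the chemokines and cytokines and Ebf2 of the regional transcription factors, both higher in bone-associated members. Of interstitial matrix it called Col14a1 in place of Col6a2. Contractile-high members held all 20 bone-associated UMIs of Il6 and all 19 of Ebf2. They held 12 of Col14a1, against 3 in contractile-low members. The medians were -2.99 for interstitial matrix, -1.43 for chemokines and cytokines, -1.36 for interferon genes, -1.24 for contractile genes, 0.52 for channels and -0.06 for basement membrane. Contractile genes had 2 of 16 called, Pln (phospholamban) and Mustn1, both higher in bone-associated members, and Acta2 was at 95.7, 71.4, 0 and 0 against 103 and 93.7 (adjusted p = 0.85). Acta2 thus ranged as widely among cortical surface libraries as between preparations. No gene of the channel and vasoactive list was called among 22 tested; the endothelin receptor gene Ednra was at 3.77, 2.68, 7.65 and 5.34 against 4.19 and 2.26. The basement membrane list had 1 of 15 called, Col18a1, higher in bone-associated members, and Col4a1, a chain of basement membrane collagen, was at 7.07, 5.50, 13.6 and 9.28 against 8.38 and 6.07. In the interstitial matrix list 1 of 13 was called, Col6a2, with 1 against 14 UMIs. In the Pdgf, Notch and Tgfb list 1 of 26 was called, the inhibitory Smad7, and of the regional transcription factors 1 of 22, Foxd1, higher in the cortical surface. Glycolysis, respiratory chain paralogs, chemokines and cytokines, and interferon genes had 0 called of 13, 14, 5 and 13 tested. Of the solute carrier family 80 genes were tested and 3 called, Slc6a20a and Slc19a1 higher in the cortical surface and Slc38a2 in bone-associated members; of 15 collagen genes 2 were called, Col6a2 and Col18a1.

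Of the markers of other cells, those of smooth muscle were among the most abundant genes of the members. Fibroblast markers summed to 7.54, 5.50, 7.65 and 5.63 per 10000 in cortical surface members and to 5.76 and 6.28 in bone-associated members; 0 of 6 tested were called, Col1a2 was the most abundant with 52 UMIs, and Pdgfra was at 0. Smooth muscle markers summed to 283, 191, 25.5 and 27.8 against 345 and 291, with Acta2 the most abundant (1817 UMIs). Endothelial markers summed to 5.66, 8.32, 6.80 and 4.78 in cortical surface members against 4.19 and 2.88 in bone-associated members, which do not overlap. They were led by Esam, with Cdh5, Egfl7, Ly6c1 and Plvap at 0. Of 12 immune markers, Cd52, C1qa, C1qb, Cd3e and Cd79a were at 0 and the most abundant, Fcer1g, had 5 UMIs. Neural markers were led by Meg3 (76 UMIs), with 1 of 4 called; bone markers were led by Alpl (3 UMIs), with Bglap, Ibsp, Acan and Col2a1 at 0. Of 5 erythroid genes tested 3 were called, all hemoglobin genes higher in the cortical surface, where 11540 UMIs of the list came from library 4, nearly all from the single barcode named above. With hemoglobin genes left out, 84 genes were called.

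Every statement on the wider set is a description. A gene is counted as apart when the 4 cortical surface and 2 bone-associated libraries do not overlap and the means differ by at least 2.46 times. Without that limit on the means, 29.0% of 7271 detected genes did not overlap, and among members of the 6 libraries 15.0%. With it, 5.06% of 7271 detected genes were apart with higher values in the cortical surface and 5.79% with higher values in bone-associated libraries. Pdgfrb was at 16.1, 16.9, 17.4 and 17.2 against 12.4 and 11.7. Rgs5 was at 156, 104, 124 and 134 against 190 and 107, and Notch3 at 12.1, 8.88, 11.8 and 9.60 against 14.1 and 8.78. For each of these 3 mural genes the means of the preparations were at most 1.40 times apart.

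Brain pericyte transport genes in the wider set lay higher in the cortical surface. Of 12 detected, 9 were apart in that direction and 0 in the other. Vtn was at 66.1, 101, 62.5 and 56.1 against 17.4 and 9.68 (5.28 times), Slc6a20a at 6.18, 6.85, 3.32 and 3.85 against 0.497 and 0.190 (14.7 times), and Atp13a5 at 4.38, 5.50, 4.15 and 2.94 against 0.397 and 0.0271. A UMI of Atp13a5 was found in 42.0% of 276 cortical surface cells (exact 95% interval 36.1 to 48.1%) and in 4.35% of 69 bone-associated cells (0.906 to 12.2%), and in 0.264% and 0.218% of T cells of the same preparations. These intervals cover counting error only. With every cell thinned to 1500 UMIs, which left 267 and 68 cells, the shares were 28.8% and 1.47%. Slc38a11, an amino acid transporter, was at 4.73, 3.24, 4.24 and 3.16 against 0.993 and 0.407. Gper1 was at 2.19, 3.79, 1.91 and 1.43 against 0.397 and 0.190. Tbxa2r, the thromboxane receptor, was the only gene of 23 in the channel list that was apart and higher in the cortical surface, at 2.06, 2.06, 2.16 and 1.70 against 0.298 and 0.217. Kcne4, a potassium channel subunit, was apart in the other direction, and the remaining 21 were not apart.

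Of 22 detected regional transcription factors in the wider set, 5 were apart with higher values in the cortical surface, 3 in bone-associated libraries, and 14 were not apart. The Zic genes, zinc-finger factors of the developing dorsal brain and meninges, lay higher in the cortical surface: Zic1 at 6.48, 6.74, 6.15 and 4.81 against 1.59 and 1.14, Zic4 at 1.53, 2.17, 1.91 and 1.97 against 0.0993 and 0.271. Foxf2, a forkhead factor of brain pericytes, was at 0.923 ± 0.177 (SD, n = 4) against 0.145 ± 0.0639 (n = 2), and Foxd1 at 3.07 ± 0.534 against 0.985 ± 0.434. Ebf2 had 1 UMI in the cortical surface and 42 in bone-associated cells.

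Interstitial matrix lay the other way. Of 17 detected genes of the list 15 were apart with higher values in bone-associated libraries and 0 in the other direction. Col1a1, a chain of fibrillar collagen (chromosome 11, 94936224 to 94953042, plus strand), had 0 UMIs in all 4 cortical surface libraries and stood at 2.38 and 14.9 in bone-associated libraries, at least 323 times higher by the mean and at least 88.8 times by library 1 alone, against a floor of 3 UMIs over the group. A UMI of Col1a1 was found in 22 of 69 bone-associated cells, and in 8 of 68 after thinning to 1500 UMIs. Col6a1, of beaded-filament collagen, was also at 0 in the 4 libraries and at 6.16 and 4.82 (at least 205 times). Col3a1 was detected in both: 3.55, 2.61, 5.07 and 2.35 against 16.1 and 18.6. The matrix protein Mgp, an inhibitor of calcification, had the highest level of the list, at 19.6, 15.5, 18.9 and 12.7 against 184 and 228. Dcn (decorin) was at 0.131, 0.0825, 0.166 and 0.197 against 2.09 and 2.36. Basement membrane genes did not follow: 13 of 15 were not apart, and Col4a1 was at 10.1, 7.23, 14.1 and 8.79 against 12.5 and 8.89. The exceptions were the laminin gene Lamc3, at 3.72, 2.86, 2.66 and 2.67 against 0.695 and 0.407, and the proteoglycan gene Hspg2, higher in bone-associated libraries.

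**Figure D4:**
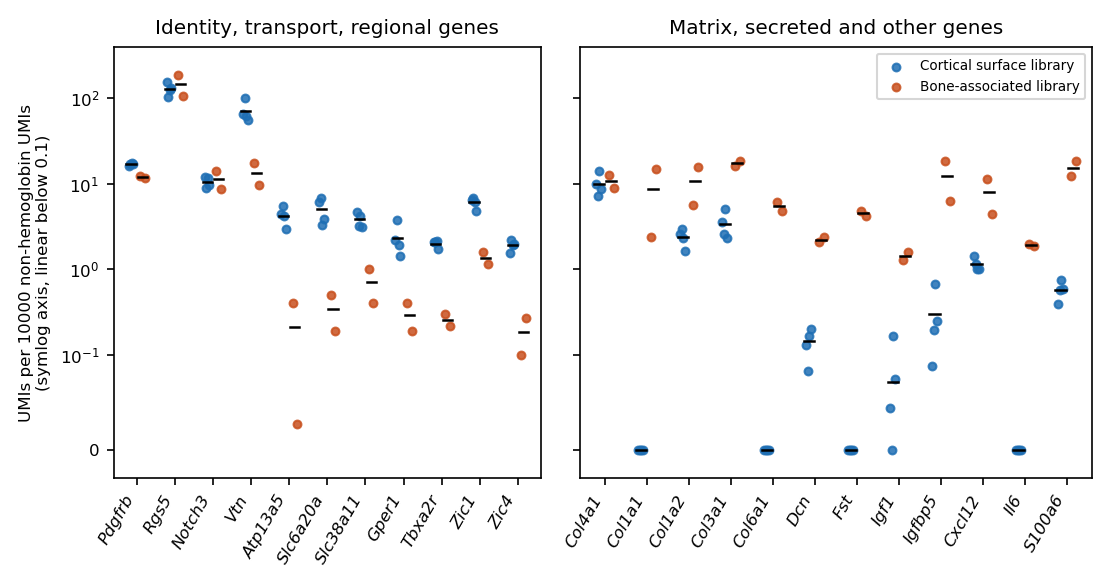
Points are libraries of the wider set, on a symlog axis of UMIs per 10000 non-hemoglobin UMIs, blue for cortical surface (n = 4) and orange for bone-associated (n = 2), with means as bars. Pdgfrb, Rgs5, Notch3 and Col4a1 are close between preparations, transport and Zic genes lie higher in cortical surface libraries, and Col1a1, Col6a1, Fst and Il6 are at 0 in all 4 of them.

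Of 13 detected genes of the list of Igf, Bmp and Wnt genes in the wider set, 4 were apart with higher values in the cortical surface, 4 in bone-associated libraries, and 5 were not apart; of 7 chemokines and cytokines the counts were 0, 4 and 3. Fst, the activin antagonist follistatin, had 0 UMIs in the 4 cortical surface libraries and was at 4.87 and 4.23 in bone-associated libraries (at least 169 times); a UMI was found in 41 of 69 bone-associated cells and 0 of 276 cortical surface cells, which allows a share of up to 1.09%. Thinned to 1500 UMIs, the share was 32.4% against 0 of 267 cells. The cytokine Il6 was at 0 against 1.99 and 1.87 (at least 71.8 times). Both were in under 1% of T cells. Il6 was also found in 31.0% of bone-associated smooth muscle cells and 0.893% of cortical surface ones, against 18.8% of the bone-associated wider set, and Fst in 7.14% of bone-associated smooth muscle cells. Igf1, a growth factor, was at 0.0438, 0, 0.166 and 0.0741 against 1.29 and 1.60, and Igfbp5 at 0.0876, 0.192, 0.665 and 0.247 against 18.5 and 6.23. Cxcl12, a chemokine that retains leukocytes and progenitors, was at 1.45, 1.15, 0.997 and 1.01 against 11.4 and 4.42, and Ccl11 (eotaxin) at 0.0876, 0.220, 0.166 and 0.123 against 1.59 and 2.66. Dkk2 and Lef1, a secreted modulator and a transcription factor of Wnt signalling, lay the other way, with 56 against 1 and 70 against 2 UMIs. Egr1 and Nr4a1, immediate early genes, were at 1.48 ± 1.34 against 12.5 ± 2.93 and at 0.230 ± 0.0883 against 3.60 ± 0.314; 9 of 19 genes of that list were apart, all higher in bone-associated libraries, and Fos and Jun were not among them.

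Fibroblast markers also moved with the preparation in the wider set. Their summed level was 9.86, 9.02, 10.1 and 6.64 in cortical surface libraries and 35.2 and 58.7 in bone-associated libraries, led by Col3a1, and 6 of 8 detected were apart. Pdgfra, the defining marker, had 1 UMI in the cortical surface and 12 in bone-associated library 2, and was at 0 in bone-associated library 1, where Col1a1 stood at 2.38 and Mgp at 184. Lum had 1 against 59 UMIs. The part of fibroblast transcripts in the matrix values was not tested. Smooth muscle markers summed to 28.2, 28.4, 25.6 and 32.1 in the cortical surface against 37.7 and 34.3 in bone-associated libraries, which do not overlap. The 3 that set the limit of the wider set (Acta2, Myh11 and Tagln) were apart and higher in bone-associated libraries even below that limit. Acta2 was at 0.789, 1.70, 0.415 and 2.07 against 3.87 and 4.28. The part of this difference in the other values of the wider set was not tested. Immune markers summed to 1.71, 1.46, 8.14 and 2.42 in the cortical surface, the highest in library 3, against 0.497 and 0.623, which do not overlap. Endothelial markers summed to 8.06, 8.66, 6.48 and 5.85 in the cortical surface against 3.68 and 4.82, which do not overlap.

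The largest ratios of the wider set with at least 50 UMIs named, in the cortical surface, Flt1, Plxdc1, St8sia4 (a sialyltransferase), Ptgds (prostaglandin D synthase), Mrc1 (the mannose receptor of macrophages), Slc30a10 (a manganese transporter), Hist1h4d, Itga4 (an integrin) and Gatm (creatine synthesis), beside Atp13a5, Slc6a20a and Uchl1. Flt1, which heads this direction, is an endothelial gene, with a UMI in 97.8% of cortical surface endothelial cells, 27.9% of cortical surface cells of the wider set and 1.45% of bone-associated ones; the part of endothelial transcripts in this was not tested. Uchl1 was at 2.45, 3.24, 1.41 and 1.97 against 0.298 and 0.0813. Ptgds was at 1.53, 1.48, 0.166 and 0.272 against 0 and 0, so cortical surface libraries 1 and 2 had the highest levels. A Ptgds UMI was found in 69 of 276 cortical surface cells of the wider set, 29.8% of endothelial cells, 56.2% of smooth muscle cells and 15.0% of T cells of that preparation, so its level in the wider set is not read as expression there. Mrc1 was at 0.263, 0.357, 1.99 and 0.667 against 0 and 0.0271, highest in library 3, where immune markers were also highest. In bone-associated libraries the largest ratios outside those given above were of Gpx3, Fabp4, Gadd45g, S100a4, Col6a2, Gm12216 and Thbs2. Thbs2, a thrombospondin, was at 0, 0.0550, 0 and 0.0247 against 1.19 and 1.06. S100a4 was at 0, 0.0275, 0 and 0.0741 against 2.38 and 1.27.

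Levels in other cells of the same libraries show how far each gene is shared, with no test since the rule set these classes apart. In T cells, which should lack mural genes, Vtn was at most 0.0627 and Rgs5 at most 0.0459 per 10000 in any library, against at least 9.68 and 104 in the wider set. Acta2 had a larger background, with a UMI in 5.01% of cortical surface and 15.0% of bone-associated T cells, against 21.0% and 39.1% of the wider set, and Igfbp5 was found in 0.264% and 5.88% of T cells, against 6.16% and 59.4%. Col1a1 in T cells was 0.305 in bone-associated library 2 and at most 0.0627 in the other libraries, and Mgp was 5.46 in that library and at most 0.125 in the others. S100a6 was high in T cells of all libraries, between 12.8 and 16.2. Smooth muscle cells, defined by Cnn1 and present in 4 libraries, shared the direction of several genes: Igfbp5 was at 0.243 and 0.136 in cortical surface libraries 1 and 2 and at 32.3 and 23.1 in bone-associated libraries, Gadd45g at 2.33 and 3.20 against 17.1 and 17.4, and Col1a1 at 0 and 0.102 against 2.89 and 3.73. Endothelial cells shared the direction of Ptn, at 31.3, 27.0, 37.9 and 33.5 against 12.6 and 6.82, and of S100a6, but Col1a1 was at most 0.398 in any library and Atp13a5 was at 0 in all 6.

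**Figure D5:**
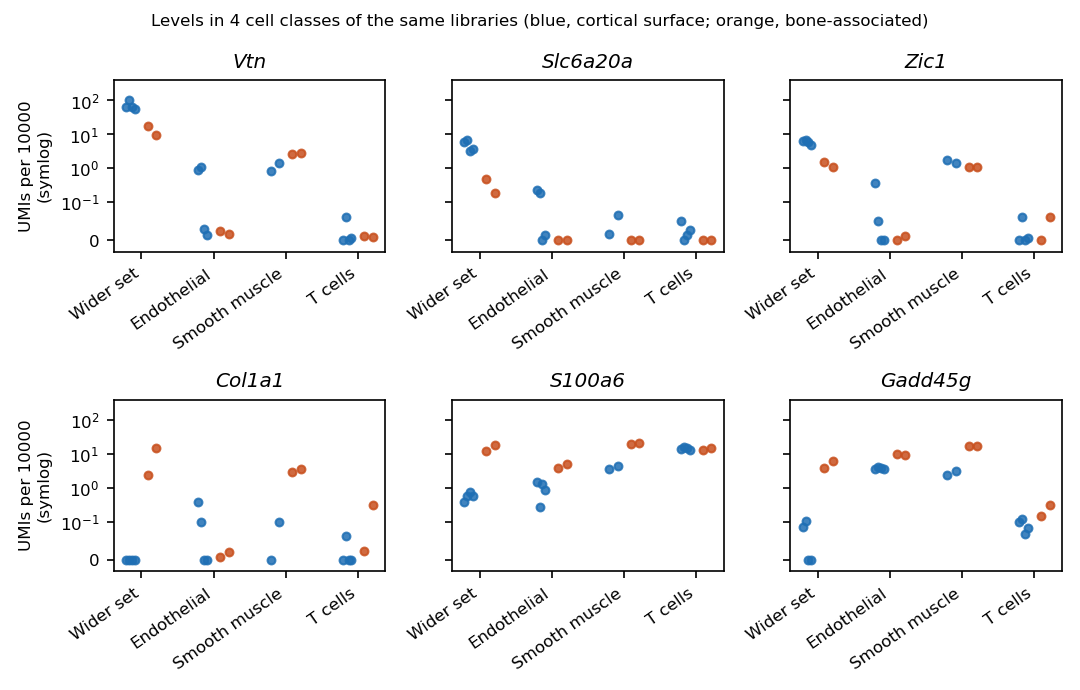
Levels of 6 genes (UMIs per 10000 non-hemoglobin UMIs, symlog axis) in the wider set, endothelial cells, smooth muscle cells and T cells, with 1 point for each library of at least 10 cells, blue for cortical surface and orange for bone-associated. Vtn, Slc6a20a and Zic1 are highest in the wider set of cortical surface libraries, Col1a1 is above 1 only in bone-associated wider-set and smooth muscle cells, and S100a6 is high in the T cells of all libraries.

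The difference between preparations was set against that of endothelial cells of the same libraries, with the library as a block, in the 3 libraries with at least 10 cells of both classes. Of 8668 genes, 45 were called by edgeR (0.519%), 20 with a difference more toward the cortical surface in members (0.231%) and 25 toward bone-associated members (0.288%); DESeq2 called 9. The 5 named by size were Ednrb, Col14a1, Mt2, Gsta4 and Uchl1, each with 0 member UMIs in at least 1 of the 3 libraries. Ednrb, an endothelin receptor, had 0, 8 and 0 UMIs in members of cortical surface libraries 2 and 4 and bone-associated library 2, and 16, 4 and 370 in endothelial cells. Uchl1 had 15, 13 and 0 UMIs in members and 27, 14 and 63 in endothelial cells. The bone-associated side was again 1 library with no replicate, only 1 degree of freedom was left in this fit, and sizes of such low counts depend on the prior count. With smooth muscle cells only 2 libraries, cortical surface 2 and bone-associated 2, held 10 cells of both classes, so no test was made.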

How the data were processed

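The authors made gene by barcode matrices with Cell Ranger (6.1.2 per the file headers, mm10), and deposited UMI counts per gene and barcode, not normalized. The study filtered doublets in its own analysis; whether the deposited matrices reflect this is not given in the sources used here, and no doublet caller was run. Counts were summed per library over member cells, tested in edgeR 4.0.16 (glmQLFit, glmQLFTest, TMM; R 4.3.3) on genes with a UMI in over 10% of cells of either preparation, with DESeq2 1.42.0 as an alternative; the 13 rule genes were left out of counts of calls. Members and gene lists were chosen with earlier results of these data known. Libraries had between 743 and 2502 kept cells and between 11764 and 97206 non-hemoglobin member UMIs. Intervals are exact binomial, and the limit beside a count of 0 is 3 counts of the total. The p-values rest on the spread between pooled-mouse libraries. The degrees of freedom that edgeR borrowed across genes were infinite in the 3-library fit, the 6-library fit and the comparison with endothelial cells. Their p-values thus use a spread shared across genes and not the spread of each gene. Both copies of Ccl19 were summed. Named genes were the 12 largest called changes in each direction with libraries that do not overlap and at least 50 UMIs on the higher side, the fixed list members, and 5 genes of the comparison with endothelial cells; the wider set followed the same limits by ratio of means. On simulated data with the fitted spread, which held another number of genes past the filter than the 7100, 7328 and 8668 of the real fits and so is only a guide, the 3-library fit recovered 42% of genes changed by 3 on the log2 scale and 20% of those changed by 2, with 5 false calls among 1723 genes; the 6-library fit recovered 70% and 31%, with 4 false calls among 2245 genes; the fit against endothelial cells recovered 16% and 5%, with 0 false calls among 10506. Some results are not reported here. Coordinates are GENCODE vM21, which matched 31011 of 31053 genes. Alternatives covered the test, normalization, gene filter, hemoglobin, marker number, cell filters, depth, other cell types and left-out libraries.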

Additional observations from a re-analysis of the deposited data

Results flagged for a closer look

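Among 33 measures screened over the 4 cortical surface libraries, 6 had 1 library far from the other 3. Some flags of this kind can arise by chance alone. In cortical surface library 4, hemoglobin made up 24.4% of member UMIs, nearly all from 1 barcode with 81.1% hemoglobin. In the wider set, Flt1, an endothelial Vegf receptor gene, was at 2.33 in library 3, and Plxdc1 at 1.79 in library 2. Fabp4 (0.0275 in library 2), Gpx3 (0.0438 in library 1) and Lum (0.0247 in library 4) stood out only because 1 UMI was found in 1 library and 0 in the other 3. The difference between preparations in members departed from that in endothelial cells by a fitted log2 value of 12.63 for Ednrb (SE 2.42, edgeR adjusted p = 0.00035) and 10.87 for Uchl1 (SE 2.49, adjusted p = 0.0050). It departed by -11.61 for Col14a1, -11.15 for Mt2, a metallothionein gene, and -10.97 for Gsta4, a glutathione transferase gene (edgeR adjusted p 0.0029, 0.00014 and 0.0087). The bone-associated side of that fit is 1 library, and these sizes rest on libraries with 0 UMIs and are no bounds.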

How the results depend on the processing

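Few cells and few libraries limit every count. Of 89 genes called in 3 libraries (20 higher in the cortical surface and 69 in bone-associated members), DESeq2 left 0 (0 and 0). Leaving out cells with a UMI of Dcn, Lum or Pdgfra, 1 cell of these libraries, also left 0 (0 and 0). The borrowed degrees of freedom were then 1.67 in place of infinite. The cell left out, with 4657 UMIs, carried all 6 rule markers and had 8 UMIs of Pdgfrb, 33 of Rgs5 and 16 of Vtn. With filterByExpr 46 were left (29 bone-associated), and with cells thinned to 1500 UMIs 32 (11 and 21). At least 2 markers gave 142 (37 and 105). A mitochondrial limit of 20% gave 33 in the cortical surface direction, and dropping the 5% of cells with most UMIs gave 32 in that direction. Other alternatives were chosen after seeing the data and fitted on all 6 libraries, so their counts stand beside the 90 and not the 89. They gave 635 (229 and 406) with Il34 and Prrx1 allowed, and 496 (146 and 350) with contractile-high cells also left out. These cells were selected after their values were seen. Of 90 calls in 6 libraries (19 and 71), DESeq2 gave 27 (6 and 21), contractile-high cells left out 22 (0 and 22), and upper-quartile normalization 32 in the cortical surface direction. Leaving out 1 library put Notch3 between -0.31 and 0.19 and gave between 23 and 108 calls (0 to 22 and 23 to 91); the lowest were without bone-associated library 2 (23, all bone-associated) and cortical surface library 4 (39; 6 and 33), and without bone-associated library 1 the cortical surface direction held 12. With the replicate block the 6 libraries gave 41 (9 and 32). The libraries share only a number, with correlations of same-numbered deviations of 0.057 and 0.12 over 2 pairs. Deviations were taken from the mean of the preparation, so those of bone-associated libraries 1 and 2 mirror each other. The 2 correlations are therefore not separate checks of a pairing. For the comparison with endothelial cells, DESeq2 gave 9 and thinning 20 in place of 45. Notch3 changed sign without passing any test: -0.10 with all 6 libraries, -0.020 and -0.21 in the 2 sets with Il34 and Prrx1 allowed, and, in the 6-library fit, 0.050 with upper-quartile normalization, 0.75 without contractile-high cells, 0.060 with the block, and between 0.0063 and 0.19 without cortical surface library 3 or bone-associated library 1. Rgs5 changed sign to -0.034 and -0.29 in the same 2 sets. Not fitted for lack of libraries were at least 4 markers, cells with Acta2 or Myh11 left out, leaving out 1 of the 3 libraries, the block on 3 libraries, and any smooth muscle comparison. Of the 25 genes rerun under the alternatives, no other reversed. The cause of the shifts in these counts and values was not tested.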
